A study of Rattus norvegicus with 28 samples.

Results

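The cell cycle and mitosis genes described here are 44 genes listed by symbol, from the cyclins of the first growth phase to the proteins that divide the cell. A gene was measured where the array's annotation gave its symbol alone to a probe set, and it was represented by the probe set of highest mean over all arrays. In this way 42 of the 44 were measured, of 14217 genes in all, and Rrm2 and Tpx2 were not analysed here. The samples were whole kidneys of female rats of the inbred Sabra strains SBH/y and SBN/y, 28 arrays in 4 groups of 7. SBH/y rats had either undergone removal of the right kidney, called 1-kidney SBH/y below, or a sham operation that left both kidneys, called 2-kidney SBH/y. SBN/y rats made up the same pair of groups, 1-kidney SBN/y and 2-kidney SBN/y. All were taken at 5 months of age, 4 months after the operation. SBH/y is known as the Sabra strain that becomes hypertensive on salt and SBN/y as the one that resists. The labels do not say that each array is a different animal, and the p-values cover only the variation among these samples, which may be technical.

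A cell that enters the cycle makes D-type cyclins, which activate cyclin-dependent kinases that release E2F transcription factors from the RB protein. E2F then drives genes of DNA replication. CHR elements in the promoters of mitotic genes take up the DREAM complex, which holds these genes off in resting cells. They also take up the MMB-FOXM1 complex, which switches the genes on. The adult kidney is known as a tissue with few dividing cells, in which proliferation genes come up during growth of the remaining kidney and during repair of injured tubules. In a whole-kidney sample, fewer cells of a type and less RNA per cell cannot be told apart, and the same holds for more of either.

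The promoters of 4 members that were higher in 1-kidney than in 2-kidney SBH/y are shown because they carry the elements through which these genes are known to be controlled. RefSeq promoters of the GRCr8 build were matched to 35 of the 42 members. Only the 250 bases before the annotated start are printed, 5′ to 3′ on the gene's strand and in lower case. Capitals mark the CHR (letters TTTGAA), the CCAAT box (CCAAT) and the E2F site (TTTCCCGC or TTTGGCGC), each searched on both strands, so that a match on the other strand appears as its reverse complement. The windows are chr8:79981659-79981908, strand minus for cyclin B2, chr20:19265043-19265292, strand plus for the mitotic kinase Cdk1, chr10:84473094-84473343, strand minus for topoisomerase II alpha and chr19:13488563-13488812, strand plus for the helicase subunit Mcm5.
Ccnb2: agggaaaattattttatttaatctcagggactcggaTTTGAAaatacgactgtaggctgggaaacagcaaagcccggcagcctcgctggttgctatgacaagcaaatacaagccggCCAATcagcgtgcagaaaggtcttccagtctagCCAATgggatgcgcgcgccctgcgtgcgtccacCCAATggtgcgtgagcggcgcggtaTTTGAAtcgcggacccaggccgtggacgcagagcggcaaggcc
Cdk1: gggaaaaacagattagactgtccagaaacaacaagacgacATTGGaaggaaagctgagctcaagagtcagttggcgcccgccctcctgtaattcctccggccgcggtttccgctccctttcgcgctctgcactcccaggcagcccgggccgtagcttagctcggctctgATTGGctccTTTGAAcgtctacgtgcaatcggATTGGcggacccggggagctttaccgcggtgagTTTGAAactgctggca
Top2a: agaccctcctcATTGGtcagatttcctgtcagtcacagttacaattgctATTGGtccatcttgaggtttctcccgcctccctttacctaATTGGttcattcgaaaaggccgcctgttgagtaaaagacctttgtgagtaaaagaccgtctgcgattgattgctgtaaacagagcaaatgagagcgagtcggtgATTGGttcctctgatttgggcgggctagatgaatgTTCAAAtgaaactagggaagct
Mcm5: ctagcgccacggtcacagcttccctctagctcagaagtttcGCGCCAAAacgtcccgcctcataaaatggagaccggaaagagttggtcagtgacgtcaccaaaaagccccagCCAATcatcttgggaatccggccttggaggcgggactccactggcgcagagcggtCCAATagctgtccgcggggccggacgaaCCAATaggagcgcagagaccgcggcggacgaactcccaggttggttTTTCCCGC
Ccnb2 showed 3 CCAAT boxes that begin 134, 101 and 68 bases before the start, and CHR matches at 43 and 214 bases. Cdk1 showed CHR matches at 72 and 16 bases and Top2a at 22 bases. Mcm5 held no CHR in this window but E2F sites at 8 and 209 bases. A CHR was present in 11 of the 35 member promoters (31.4%), against 16% of 27457 promoters. For the CCAAT box the counts were 25 of 35 (71.4%) against 34.3%, for the E2F site 5 of 35 (14.3%) against 1.26%, and for CHR with a CCAAT box 10 of 35 (28.6%) against 5.76%. Of the 14 promoters of members called higher in 1-kidney SBH/y, 6 held both a CHR and a CCAAT box (42.9%), as did 4 of the other 21 (19%). These letters describe the windows, and binding was not measured.

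The deposited values were log2 intensities on a common scale, with array medians from 5.72 to 5.77 and correlations between arrays of 0.985 to 0.997. Most cell cycle genes were dim in this tissue. Of the 42 members, 29 had a mean below the lowest array median in all 4 groups, among them 13 of the 18 called members given next. Signal over background was not measured, so a log2 difference of a dim gene may not equal the fold of its RNA. The number of arrays limits the precision.

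The first comparison asked how the cell cycle genes of SBH/y kidneys stood 4 months after uninephrectomy. A member was called where its limma p, adjusted by Benjamini-Hochberg over all 31042 probe sets, was under 0.05. In 1-kidney SBH/y 18 of 42 members were higher than in 2-kidney SBH/y, and 0 were lower. The background over all genes was 4.85% called higher and 5.51% called lower. The members were chosen with earlier results of these data known, so the contrast with all genes is no independent test. Among genes with a mean below the lowest array median it was 3.34% called higher. The called members were Tk1, Ube2c, Cdk1, Prc1, Ccnd2, Cdkn3, Mcm6, Top2a, Mcm5, Mad2l1, Mki67, Ccnb2, Ccna2, Nusap1, Bub1, Stmn1, Ccnd1 and Mcm3. Their log2 differences were small, from 0.17 for Stmn1 to 0.61 for Cdkn3, which are folds of 1.12 to 1.52. The median difference over the 42 members was 0.17, against 0.01 over all genes, and 39 of 42 members had a positive difference, against 54.8% of all genes. All 7 1-kidney arrays lay above all 7 2-kidney arrays for 2 members, Mcm6 and Nusap1, which held for 1.32% of all genes. With SBH/y replicate 7 with both kidneys left out, 10 members were called higher, and 4.05% of all genes. In that fit 39 members remained positive with a median of 0.18. Leaving out any other single array gave 12 to 20 members. Ccnd2, Cdk1, Cdkn3, Mad2l1, Mcm5, Mcm6, Prc1, Tk1, Top2a and Ube2c were called in each of the 28 fits that left out 1 array, while Ccna2, Ccnb2, Mki67, Nusap1, Bub1, Stmn1, Ccnd1 and Mcm3 were not in at least 1 of them. All 8 lost their call without SBH/y replicate 7 with both kidneys. Among SBH/y arrays with 1 kidney, Ccna2 also lost it without replicate 3 or 5, Ccnb2 without 5 or 6, Mki67 without 6 and Nusap1 without 7, while Bub1, Stmn1, Ccnd1 and Mcm3, nearest the threshold, were called in 17 to 20 of the 28 fits.

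**Figure D1:**
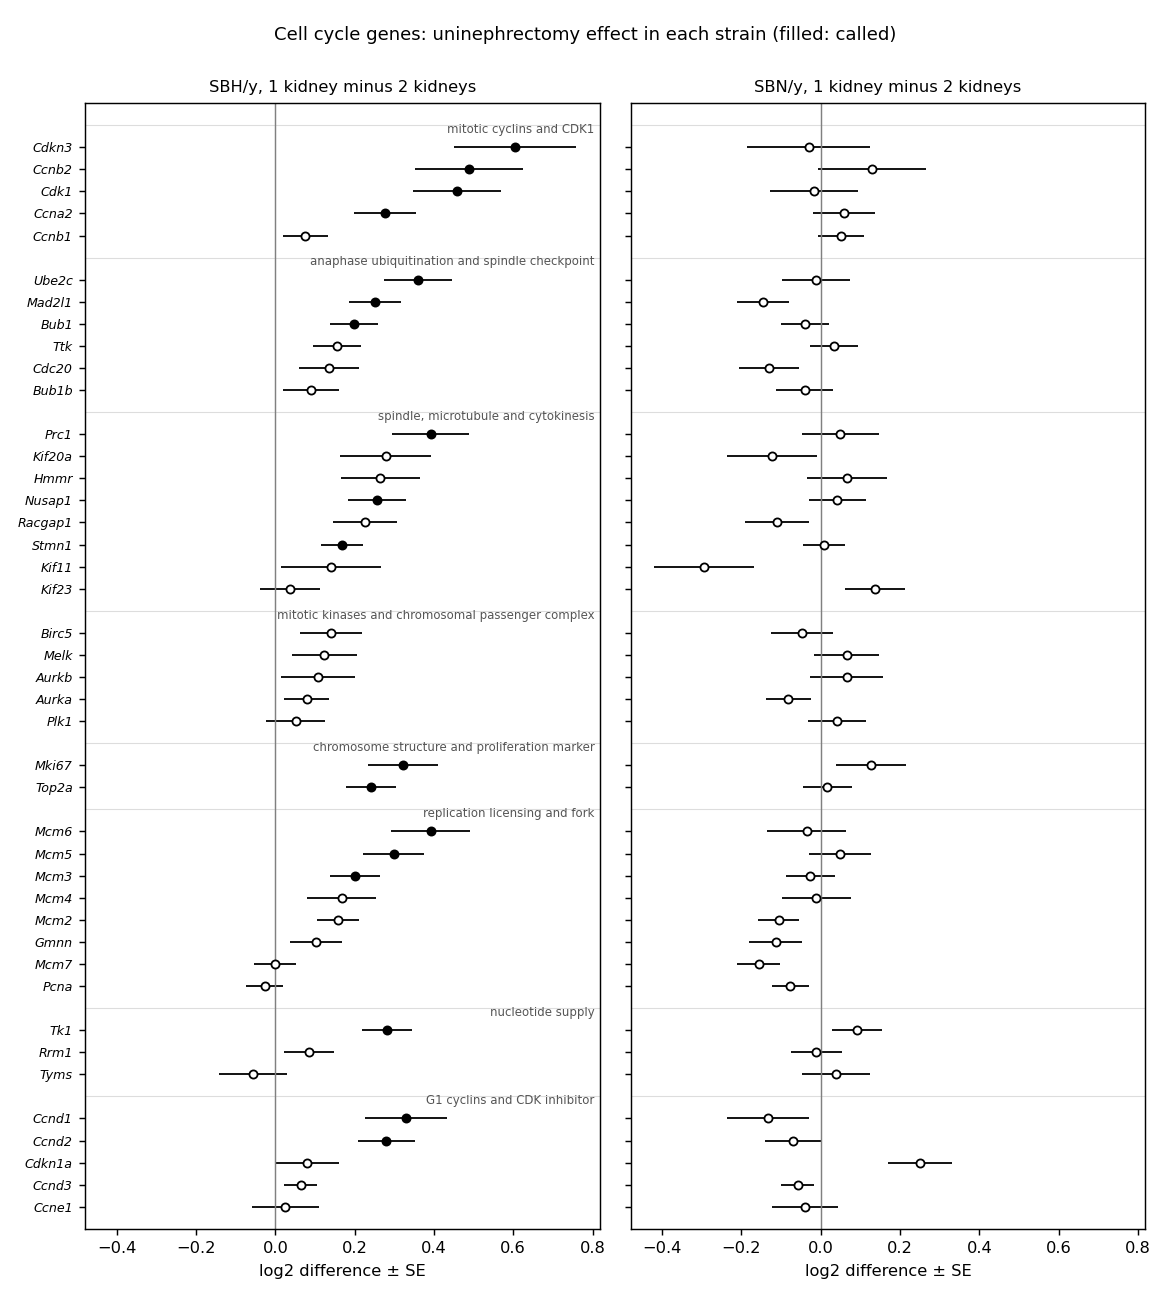
Log2 difference (1 kidney minus 2 kidneys, horizontal axis) of the 42 members with its standard error, grouped by role, in SBH/y (left) and SBN/y (right). Filled points are called at an adjusted p under 0.05, 18 in SBH/y and 0 in SBN/y.

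In each group, 3 values are given per gene, the lowest, the median and the highest of 7 arrays in log2 units, and a difference is 1 kidney minus 2 kidneys in log2 units with its standard error. The mitotic cyclins and Cdk1 held 4 called members of 5. Cdk1, the kinase that starts mitosis when bound to cyclin B, had values of 4.68, 5.00 and 5.36 in 1-kidney SBH/y, against 4.42, 4.57 and 4.73 in 2-kidney SBH/y. It was higher by 0.46 ± 0.11 (limma adjusted p 0.0073), and a single 1-kidney array fell within the 2-kidney range. In SBN/y Cdk1 lay at 4.40, 4.56 and 4.90 with 1 kidney and at 4.24, 4.58 and 5.22 with both, a difference of -0.02 ± 0.11. The highest SBN/y array was one with both kidneys, well inside the 1-kidney SBH/y range. Ccnb2, a B-type cyclin that partners Cdk1, stood at 4.89, 5.05 and 5.73 in 1-kidney SBH/y, against 4.40, 4.61 and 5.07 in 2-kidney SBH/y, higher by 0.49 ± 0.14 (limma adjusted p 0.0218). Here 3 of 7 1-kidney arrays exceeded the highest 2-kidney array, and all 7 exceeded the 2-kidney median. The SBN/y values of Ccnb2 were 4.44, 4.70 and 4.99 with 1 kidney and 4.09, 4.61 and 5.19 with both, and the difference of 0.13 ± 0.14 was no larger than its error.

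Cdkn3, a phosphatase that acts on cyclin-dependent kinases, had the largest difference of the 42 members. Its values were 3.62, 4.10 and 4.97 in 1-kidney SBH/y, against 3.33, 3.61 and 3.75 in 2-kidney SBH/y, a rise of 0.61 ± 0.15 (limma adjusted p 0.0113). In 6 of 7 1-kidney arrays Cdkn3 exceeded every 2-kidney array, and the spread within the 1-kidney group was wide. For SBN/y the values were 3.19, 3.54 and 3.75 with 1 kidney and 3.02, 3.31 and 4.15 with both, a difference of -0.03 ± 0.15. Ccna2, the cyclin of S phase and early mitosis, was the dimmest called member. It gave 3.02, 3.21 and 3.65 in 1-kidney SBH/y, against 2.82, 2.99 and 3.21 in 2-kidney SBH/y, and was higher by 0.28 ± 0.08 (limma adjusted p 0.0221) with 4 of 7 arrays inside the 2-kidney range. Its SBN/y values were 2.87, 2.96 and 3.09 with 1 kidney and 2.70, 2.89 and 3.05 with both, and the difference was 0.06 ± 0.08. The highest 1-kidney SBH/y array was replicate 5 for Ccnb2, Cdkn3 and Ccna2 and replicate 6 for Cdk1. Ccnb1, the other B cyclin, differed by 0.08 ± 0.06 (limma adjusted p 0.492) and was not called, while its second, dimmer probe set was called at 0.30 ± 0.08 (limma adjusted p 0.0214).

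Of 6 genes of anaphase ubiquitination and the spindle checkpoint, 3 were higher in 1-kidney SBH/y. Ube2c is the ubiquitin-conjugating enzyme with which the anaphase-promoting complex marks cyclins and securin for breakdown. It lay at 4.99, 5.31 and 5.50 in 1-kidney SBH/y, against 4.69, 4.91 and 5.14 in 2-kidney SBH/y, higher by 0.36 ± 0.09 (limma adjusted p 0.00664). All 7 1-kidney arrays were above the 2-kidney median and 5 were above the 2-kidney maximum. SBN/y gave 4.69, 4.98 and 5.05 with 1 kidney and 4.66, 4.90 and 5.15 with both, a difference of -0.01 ± 0.09. Mad2l1 encodes MAD2, the checkpoint protein that holds back the anaphase-promoting complex until chromosomes are attached. In 1-kidney SBH/y it had 5.00, 5.28 and 5.36, against 4.80, 4.98 and 5.17 in 2-kidney SBH/y, which is 0.25 ± 0.07 higher (limma adjusted p 0.0148). In 1-kidney SBN/y it had 4.69, 4.81 and 5.01, against 4.75, 4.99 and 5.08 in 2-kidney SBN/y, a difference of -0.15 ± 0.07 of opposite sign that was not called. The 2 remaining probe sets of Mad2l1, both dimmer, differed in SBH/y by 0.15 ± 0.07 and 0.05 ± 0.07 and were not called. Bub1, a checkpoint kinase of the kinetochore, stood at 3.31, 3.58 and 3.69 in 1-kidney SBH/y, against 3.22, 3.36 and 3.43 in 2-kidney SBH/y. It was higher by 0.20 ± 0.06 (limma adjusted p 0.0378), with 1 low 1-kidney array below the 2-kidney median and 6 above all 2-kidney arrays. Bub1 in SBN/y gave 3.12, 3.25 and 3.49 with 1 kidney and 3.07, 3.30 and 3.48 with both (-0.04 ± 0.06). The checkpoint kinase Ttk differed by 0.16 ± 0.06 (limma adjusted p 0.118), the anaphase activator Cdc20 by 0.14 ± 0.08 (limma adjusted p 0.321) and the checkpoint protein Bub1b by 0.09 ± 0.07 (limma adjusted p 0.507). These 3 did not pass.

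Among 8 genes of the spindle, microtubules and cytokinesis, 3 passed. Prc1, which bundles microtubules at the middle of the dividing spindle, gave 4.83, 5.01 and 5.33 in 1-kidney SBH/y, against 4.56, 4.64 and 4.89 in 2-kidney SBH/y. The rise was 0.39 ± 0.10 (limma adjusted p 0.00936), and only 1 of the 1-kidney arrays lay within the 2-kidney range. In SBN/y Prc1 had 4.56, 4.85 and 5.02 with 1 kidney and 4.38, 4.68 and 5.05 with both (0.05 ± 0.10), and 2-kidney SBN/y was the most variable group. Nusap1, a spindle microtubule protein, separated the SBH/y groups completely. Its values were 5.20, 5.27 and 5.56 in 1-kidney SBH/y, against 4.81, 5.11 and 5.15 in 2-kidney SBH/y, higher by 0.26 ± 0.07 (limma adjusted p 0.0254), while a second, dimmer probe set differed by 0.08 ± 0.09 and was not called. SBN/y lay at 4.77, 4.97 and 5.23 with 1 kidney and 4.80, 4.93 and 5.22 with both, a difference of 0.04 ± 0.07. Stmn1 encodes stathmin, which destabilizes microtubules, and was bright in these kidneys. It stood at 9.84, 10.01 and 10.08 in 1-kidney SBH/y, against 9.67, 9.81 and 9.94 in 2-kidney SBH/y, and the rise of 0.17 ± 0.05 (limma adjusted p 0.0409) was the smallest called. The SBN/y values, 9.26, 9.36 and 9.41 with 1 kidney and 9.19, 9.35 and 9.54 with both, were lower than every SBH/y array and differed from each other by 0.01 ± 0.05.

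Racgap1, which with the kinesin Kif23 forms the centralspindlin complex of cytokinesis, came close to the threshold. It had 4.74, 4.92 and 5.35 in 1-kidney SBH/y, against 4.47, 4.72 and 4.88 in 2-kidney SBH/y, a difference of 0.23 ± 0.08 (limma adjusted p 0.0832), with 4 arrays above the 2-kidney maximum. In SBN/y it had 4.36, 4.54 and 4.70 with 1 kidney and 4.52, 4.57 and 4.90 with both (-0.11 ± 0.08). The spindle protein Hmmr differed in SBH/y by 0.27 ± 0.10 (limma adjusted p 0.103), the kinesin Kif20a by 0.28 ± 0.11 (limma adjusted p 0.142), the spindle motor Kif11 by 0.14 ± 0.13 (limma adjusted p 0.579) and Kif23 by 0.04 ± 0.08 (limma adjusted p 0.839), none called. Racgap1, Hmmr and Kif20a thus had log2 differences as large as those of several called members, with wider errors.

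**Figure D2:**
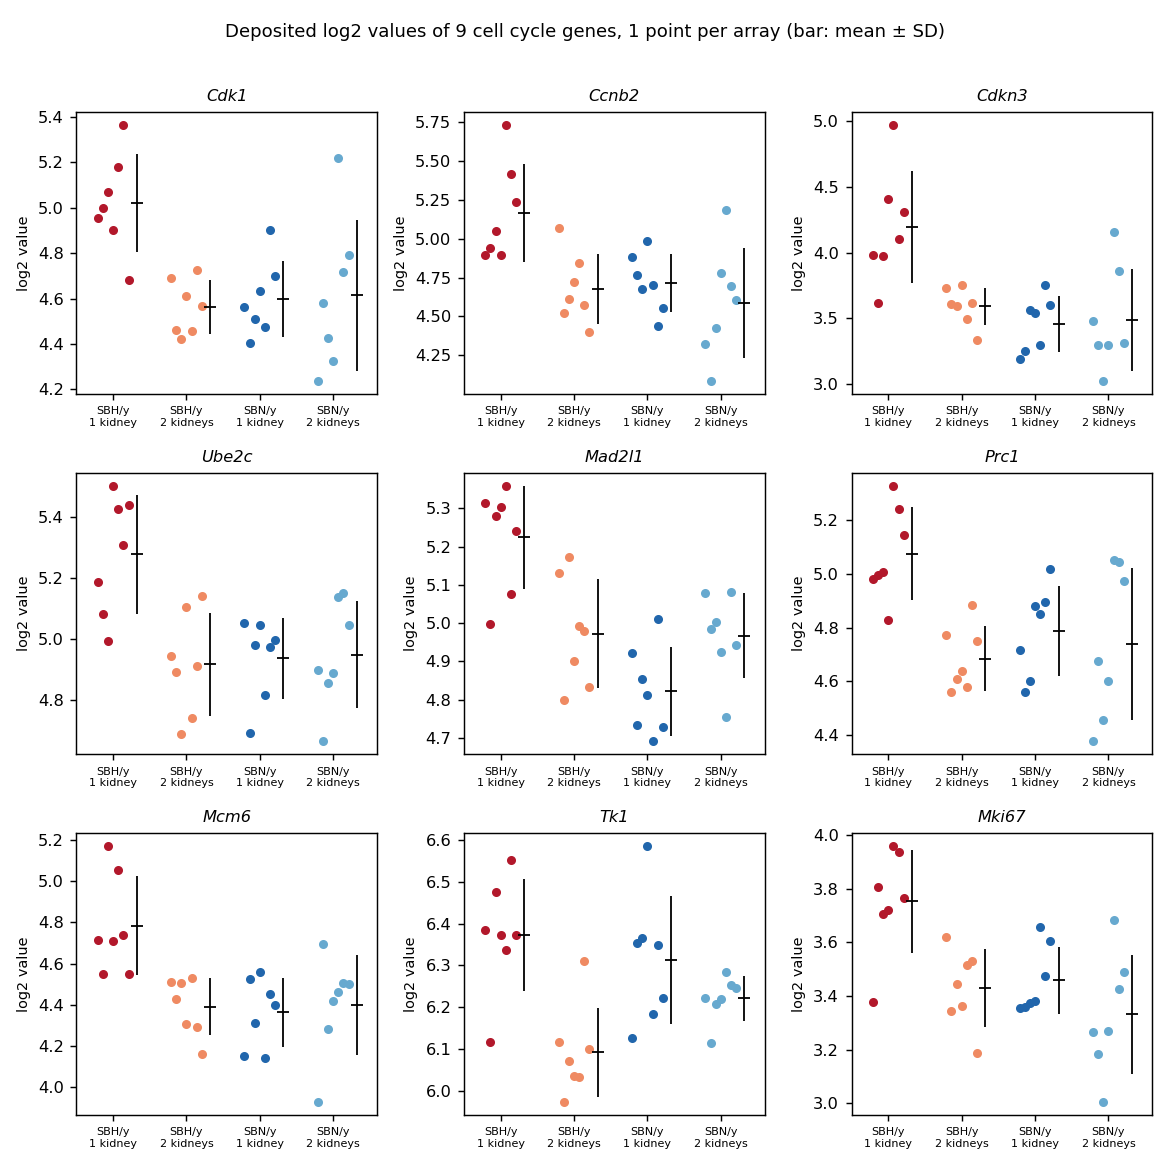
Deposited log2 values (vertical axis) of 9 members in the 4 groups, 1 point per array, with the mean and SD of 7 arrays beside each group. Most 1-kidney SBH/y points lie above the 2-kidney SBH/y points, with single arrays at their level, such as the Mki67 value of 3.38. Tk1 in 1-kidney SBN/y reaches as high as in 1-kidney SBH/y.

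Top2a, which untangles replicated DNA, and Mki67, the Ki-67 antigen used to stain cycling cells, both passed. Top2a lay at 3.96, 4.07 and 4.23 in 1-kidney SBH/y, against 3.71, 3.76 and 4.04 in 2-kidney SBH/y. It was higher by 0.24 ± 0.06 (limma adjusted p 0.0127), with 4 of 7 arrays beyond the 2-kidney maximum, while a second, slightly dimmer probe set differed by 0.17 ± 0.09 (limma adjusted p 0.232) and was not called. SBN/y gave 3.61, 3.75 and 4.06 with 1 kidney and 3.63, 3.77 and 3.92 with both (0.02 ± 0.06), close to 2-kidney SBH/y. Mki67 stood at 3.38, 3.77 and 3.96 in 1-kidney SBH/y, against 3.19, 3.45 and 3.62 in 2-kidney SBH/y, a rise of 0.32 ± 0.09 (limma adjusted p 0.0192). Its lowest 1-kidney array lay below the 2-kidney median, and the other 6 lay above all 2-kidney SBH/y arrays. In SBN/y Mki67 had 3.36, 3.38 and 3.66 with 1 kidney and 3.01, 3.27 and 3.69 with both, a difference of 0.13 ± 0.09. None of 5 mitotic kinases and chromosomal passenger genes was called. Birc5, or survivin, differed by 0.14 ± 0.08 (limma adjusted p 0.324), Melk by 0.12 ± 0.08 (limma adjusted p 0.421), the Aurora kinases Aurkb by 0.11 ± 0.09 (limma adjusted p 0.553) and Aurka by 0.08 ± 0.06 (limma adjusted p 0.463), and the polo kinase Plk1 by 0.05 ± 0.07 (limma adjusted p 0.76). All 5 values were positive and within 2 standard errors of 0.

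Of 8 genes of replication licensing and the fork, 3 were higher in 1-kidney SBH/y, all subunits of the MCM helicase that unwinds DNA at origins. Mcm6 had values of 4.55, 4.71 and 5.17 in 1-kidney SBH/y, against 4.16, 4.43 and 4.53 in 2-kidney SBH/y. The groups did not overlap, although the gap between them was narrow, and the rise was 0.39 ± 0.10 (limma adjusted p 0.0119). SBN/y lay at 4.14, 4.40 and 4.56 with 1 kidney and 3.93, 4.46 and 4.69 with both (-0.04 ± 0.10). Mcm5, whose promoter with its E2F sites is printed above, gave 5.57, 5.80 and 6.22 in 1-kidney SBH/y, against 5.43, 5.52 and 5.68 in 2-kidney SBH/y, higher by 0.30 ± 0.08 (limma adjusted p 0.0138). Its 2-kidney SBH/y arrays were low beside SBN/y, where the values were 5.61, 5.76 and 5.93 with 1 kidney and 5.51, 5.72 and 5.98 with both (0.05 ± 0.08). Mcm3 stood at 5.03, 5.16 and 5.26 in 1-kidney SBH/y, against 4.75, 5.00 and 5.09 in 2-kidney SBH/y, and passed narrowly at 0.20 ± 0.06 (limma adjusted p 0.0443). In SBN/y Mcm3 had 4.73, 4.90 and 5.14 with 1 kidney and 4.82, 4.97 and 5.08 with both (-0.03 ± 0.06). Mcm2 had the smallest p of the members that were not called, at 0.16 ± 0.05 (limma adjusted p 0.0579). It lay at 6.30, 6.42 and 6.48 in 1-kidney SBH/y, against 6.16, 6.21 and 6.43 in 2-kidney SBH/y, and at 6.11, 6.21 and 6.36 in 1-kidney SBN/y, against 6.25, 6.27 and 6.53 in 2-kidney SBN/y. Mcm4 differed by 0.17 ± 0.09 (limma adjusted p 0.277) and Mcm7 by 0.00 ± 0.05 (limma adjusted p 0.994). The MCM subunits, which act as a hexamer, thus gave unlike values, with Mcm6 at 0.39 and Mcm7 at 0.00, but the difference between genes was not tested.

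Geminin, Gmnn, which blocks licensing after S phase has begun, differed by 0.10 ± 0.07 (limma adjusted p 0.399). Pcna, the sliding clamp of the replication fork and a frequent proliferation marker, was bright and was not called. Its values were 9.69, 9.80 and 9.91 in 1-kidney SBH/y, against 9.69, 9.84 and 9.88 in 2-kidney SBH/y, a difference of -0.03 ± 0.05 (limma adjusted p 0.801). In 1-kidney SBN/y Pcna had 9.69, 9.70 and 9.79, against 9.63, 9.81 and 9.93 in 2-kidney SBN/y (-0.08 ± 0.05), and the ranges of all 4 groups overlapped.

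Of the nucleotide supply genes 1 of 3 passed. Tk1, the thymidine kinase of S phase, had the smallest p of all members. It lay at 6.12, 6.37 and 6.55 in 1-kidney SBH/y, against 5.97, 6.07 and 6.31 in 2-kidney SBH/y, higher by 0.28 ± 0.06 (limma adjusted p 0.00382). Apart from 1 low 1-kidney array at 6.12 and 1 high 2-kidney array at 6.31, the groups did not overlap. In SBN/y Tk1 had 6.13, 6.35 and 6.59 with 1 kidney and 6.12, 6.22 and 6.29 with both (0.09 ± 0.06), so that by median the 2-kidney SBH/y group was the lowest of the 4. Its second probe set was also called at 0.27 ± 0.06 (limma adjusted p 0.00383), and the third, dimmer one was not at 0.13 ± 0.09. Rrm1, a subunit of ribonucleotide reductase, differed by 0.09 ± 0.06 (limma adjusted p 0.483) and the thymidylate synthase Tyms by -0.06 ± 0.09 (limma adjusted p 0.772).

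The 5 genes of the first growth phase included 2 called D cyclins, the partners of CDK4 and CDK6. Cyclin D2, Ccnd2, had 6.96, 7.11 and 7.15 in 1-kidney SBH/y, against 6.60, 6.82 and 7.04 in 2-kidney SBH/y, higher by 0.28 ± 0.07 (limma adjusted p 0.0111). The 1-kidney arrays lay close together, 5 of them above the 2-kidney maximum. In SBN/y Ccnd2 had 6.67, 6.82 and 7.07 with 1 kidney and 6.72, 6.96 and 7.20 with both (-0.07 ± 0.07). Cyclin D1, Ccnd1, was the brightest member. It stood at 10.71, 11.24 and 11.34 in 1-kidney SBH/y, against 10.67, 10.77 and 10.93 in 2-kidney SBH/y, a rise of 0.33 ± 0.10 (limma adjusted p 0.0418). The SBN/y values were 10.78, 11.13 and 11.50 with 1 kidney and 10.87, 11.24 and 11.44 with both (-0.13 ± 0.10), so the low group was 2-kidney SBH/y. The 2 further probe sets of Ccnd1 differed in SBH/y by 0.34 ± 0.10, called, and by 0.27 ± 0.10 (limma adjusted p 0.115), not called. Cyclin D3, Ccnd3, gave 8.19, 8.32 and 8.40 in 1-kidney SBH/y, against 8.15, 8.24 and 8.33 in 2-kidney SBH/y, a difference of 0.06 ± 0.04 (limma adjusted p 0.408) that was not called. Its SBN/y values were 8.21, 8.26 and 8.31 with 1 kidney and 8.19, 8.30 and 8.47 with both (-0.06 ± 0.04). The S phase cyclin Ccne1 differed by 0.03 ± 0.08 (limma adjusted p 0.908).

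Cdkn1a encodes p21, the inhibitor that arrests the cycle downstream of p53. It lay at 7.31, 7.38 and 7.74 in 1-kidney SBH/y, against 7.25, 7.37 and 7.52 in 2-kidney SBH/y, a difference of 0.08 ± 0.08 (limma adjusted p 0.635). In 1-kidney SBN/y it had 7.01, 7.31 and 7.58, against 6.83, 7.01 and 7.30 in 2-kidney SBN/y, and the difference of 0.25 ± 0.08 (limma adjusted p 0.214) was the largest positive one of the 42 members in that strain. Neither was called, and the 2-kidney SBN/y arrays were the low ones. Over the members with several probe sets, 20 further probe sets were measured, of which 3 were called higher in 1-kidney SBH/y, 0 lower, and 17 had a positive difference. Of all 31042 probe sets, 1033 were called higher and 1525 lower. The further probe sets belong to members already counted, so they are no independent support.

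In SBN/y the same operation was followed by no call among the 42 members. The background was 0.605% of genes called in either direction, 41 higher and 45 lower, and it fell to 17 higher and 17 lower without SBN/y replicate 7 with 1 kidney. The median difference was -0.01 and 18 of 42 were positive, against 49.5% of all genes. The largest positive differences were those of Cdkn1a and Kif23 at 0.14 ± 0.08, and the lowest was that of Kif11 at -0.29 ± 0.13. The difference between the strains' responses was tested as an interaction, subtracting the SBN/y effect from the SBH/y effect. By this test 1 of 42 members was called higher, against 0.964% of all genes. That member was Mad2l1, with an interaction of 0.40 ± 0.09 (limma adjusted p 0.0243), and its 2 dimmer probe sets, at 0.21 ± 0.09 (limma adjusted p 0.32) and 0.06 ± 0.10 (limma adjusted p 0.906), were not called. The interaction was positive for 39 of 42 members, against 53.8% of all genes, with a median of 0.21. For Cdk1 it was 0.48 ± 0.16 (limma adjusted p 0.142), for Cdkn3 0.64 ± 0.22 (limma adjusted p 0.163), for Mcm2 0.26 ± 0.07 (limma adjusted p 0.0655) and for Ccnd2 0.35 ± 0.10 (limma adjusted p 0.0727). For 41 members a response that differs between the strains was therefore not shown gene by gene. The count of called members was 4 without SBH/y replicate 2 with 1 kidney or SBN/y replicate 6 with 1 kidney. It was 2 without SBH/y replicate 3 or 6 or SBN/y replicate 1 with both kidneys, and 1 without any other array. Over all genes the interaction gave 137 higher and 156 lower, and 253 and 288 without SBH/y replicate 2 with 1 kidney.

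The next comparisons set SBH/y against SBN/y in the same surgical state. After uninephrectomy SBH/y was higher than SBN/y for 21 of 42 members and lower for 1, against a background of 14.9% and 11.9% of genes. This comparison shares the 1-kidney SBH/y arrays with the first one, so the 15 members called higher in both are no independent support for each other. The 6 called higher here only were Kif11, Cdc20, Aurka, Mcm2, Mcm7 and Racgap1. Kif11, the plus-end motor that pushes spindle poles apart, was 1.28 ± 0.13 higher (limma adjusted p 2.27e-09). Its values were 7.16, 7.61 and 7.76 in 1-kidney SBH/y, against 5.88, 6.28 and 6.64 in 1-kidney SBN/y, with no overlap. Stmn1 was higher by 0.62 ± 0.05 (limma adjusted p 8.56e-11), Cdkn3 by 0.74 ± 0.15 (limma adjusted p 0.000475) and Mad2l1 by 0.40 ± 0.07 (limma adjusted p 2.25e-05). Racgap1 at 0.40 ± 0.08 (limma adjusted p 0.000314) and Aurka at 0.27 ± 0.06 (limma adjusted p 0.00061) also had all 7 SBH/y arrays above all 7 SBN/y arrays, as did Stmn1. The share of all genes that separate the strains in this way was not counted, so these separations have no background beside them. The lower member was Tyms at -0.25 ± 0.09 (limma adjusted p 0.0319), a call that was lost on leaving out any 1 of 7 arrays, SBH/y replicates 3, 5, 6 and 7 and SBN/y replicates 1, 2 and 5 with 1 kidney. Among the higher members, Prc1 lost its call without SBH/y replicate 5, 6 or 7 or SBN/y replicate 1, 2 or 3 with 1 kidney, and Cdc20 without SBH/y replicate 2 or 6 or SBN/y replicate 4 or 7 with 1 kidney. Ccnb2 lost it without SBH/y replicate 5 and Ccnd2 without SBN/y replicate 5, both with 1 kidney. Further probe sets of Top2a at 0.14 ± 0.09, Racgap1 at 0.13 ± 0.07 and Nusap1 at 0.05 ± 0.09 and 4 of Cdc20 were not called in this comparison, and of the 2 of Mad2l1 1 was called, at 0.20 ± 0.07. Mcm5 at 0.06 ± 0.08 and Tk1 at 0.06 ± 0.06 did not differ past the threshold between the 1-kidney groups, although both were called within SBH/y. The second probe set of Tk1 was called here, at 0.20 ± 0.06 (limma adjusted p 0.0157), as was that of Ccnb1 at 0.23 ± 0.08 (limma adjusted p 0.0486). That of Kif23 was called higher at 0.24 ± 0.07 (limma adjusted p 0.0141). That of Gmnn was called lower at -0.37 ± 0.10 (limma adjusted p 0.00726), while the Gmnn probe set used differed by -0.01 ± 0.07.

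**Figure D3:**
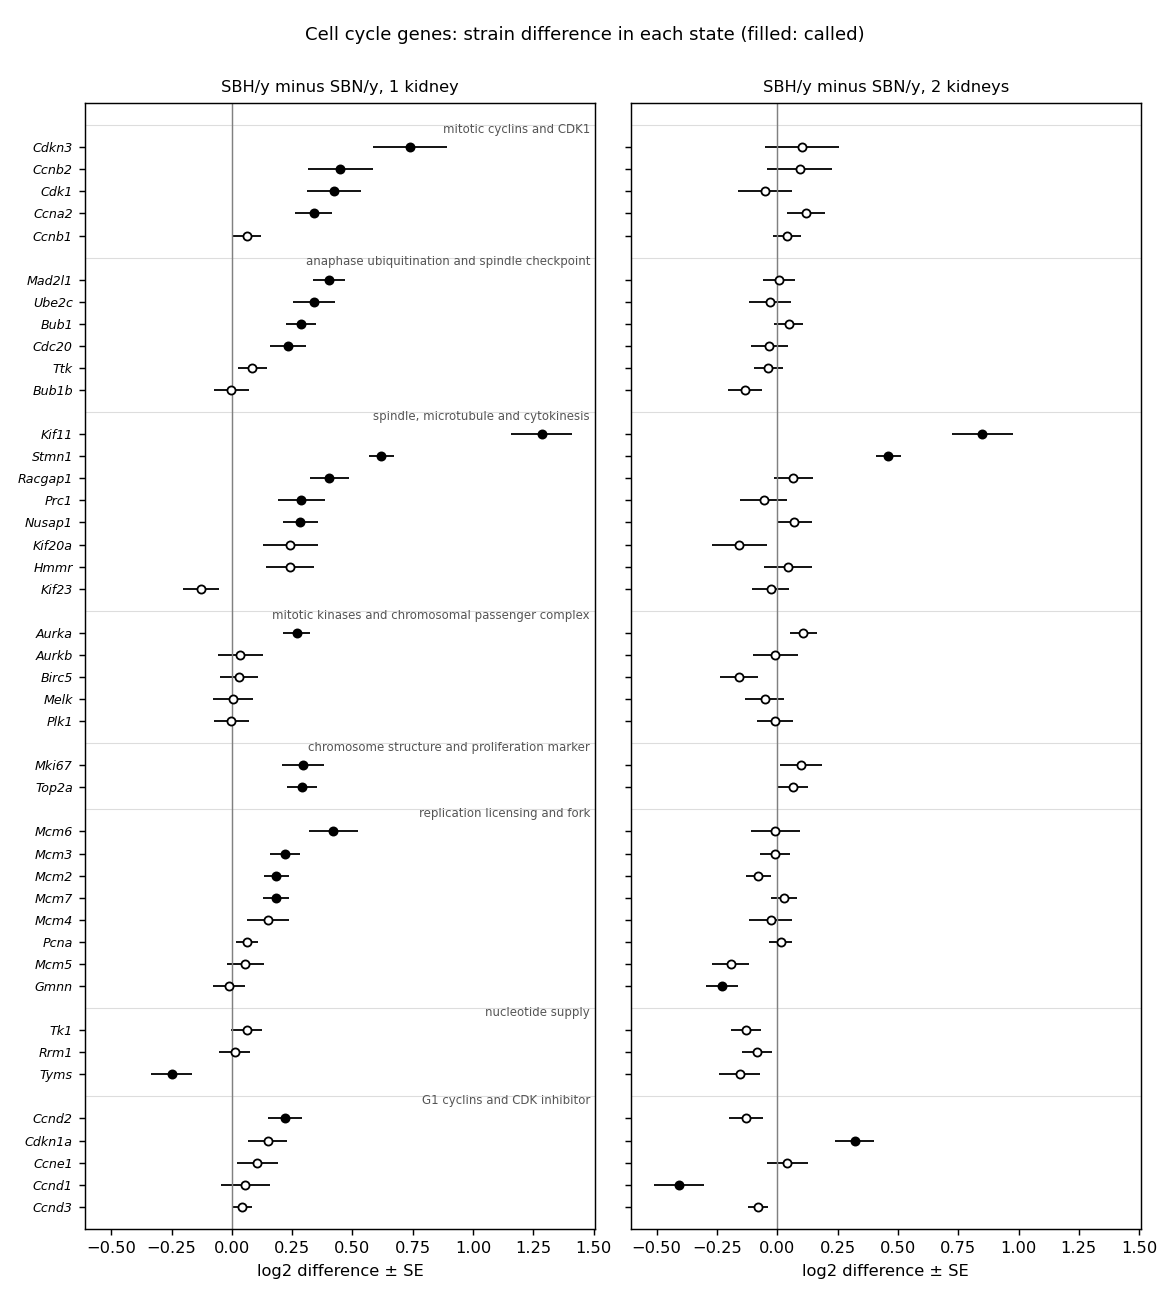
Log2 difference (SBH/y minus SBN/y, horizontal axis) of the 42 members with its standard error, with 1 kidney (left) and 2 kidneys (right). Filled points are called, 22 on the left and 5 on the right, and Kif11 stands farthest to the right in both.

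With both kidneys in place SBH/y was higher for 3 members and lower for 2, against 11.8% and 9.69% of genes, so both shares were below the background. The 3 were Kif11 at 0.85 ± 0.13 (limma adjusted p 6.15e-06), Stmn1 at 0.46 ± 0.05 (limma adjusted p 4.81e-08) and Cdkn1a at 0.32 ± 0.08 (limma adjusted p 0.00443). Kif11 had values of 7.15, 7.45 and 7.70 in 2-kidney SBH/y, against 6.07, 6.65 and 6.94 in 2-kidney SBN/y. For Kif11 and Stmn1 all 7 SBH/y arrays lay above all 7 SBN/y arrays in both states, so their strain difference was present without loss of a kidney. The share of all genes separated like this was not counted with both kidneys either. The second probe set of Kif11 gave 0.81 ± 0.11 with 1 kidney and 0.54 ± 0.11 with both, called in both. Whether sequence variants under the probes enter these strain differences was not tested. The second probe set of Cdkn1a was called too, at 0.49 ± 0.13. Ccnd1 was lower in 2-kidney SBH/y by a log2 difference of -0.41 ± 0.10 (limma adjusted p 0.00445), with its other probe sets at -0.35 ± 0.10 and -0.30 ± 0.10, both called. Gmnn differed by -0.23 ± 0.07 (limma adjusted p 0.0137) and its second probe set by -0.48 ± 0.10, and the second one was also called lower with 1 kidney. In the 1-kidney groups Ccnd1 differed between the strains by 0.06 ± 0.10 and was not called. Over the 42 members the median strain difference was 0.20 with 1 kidney and -0.01 with both.

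**Figure D4:**
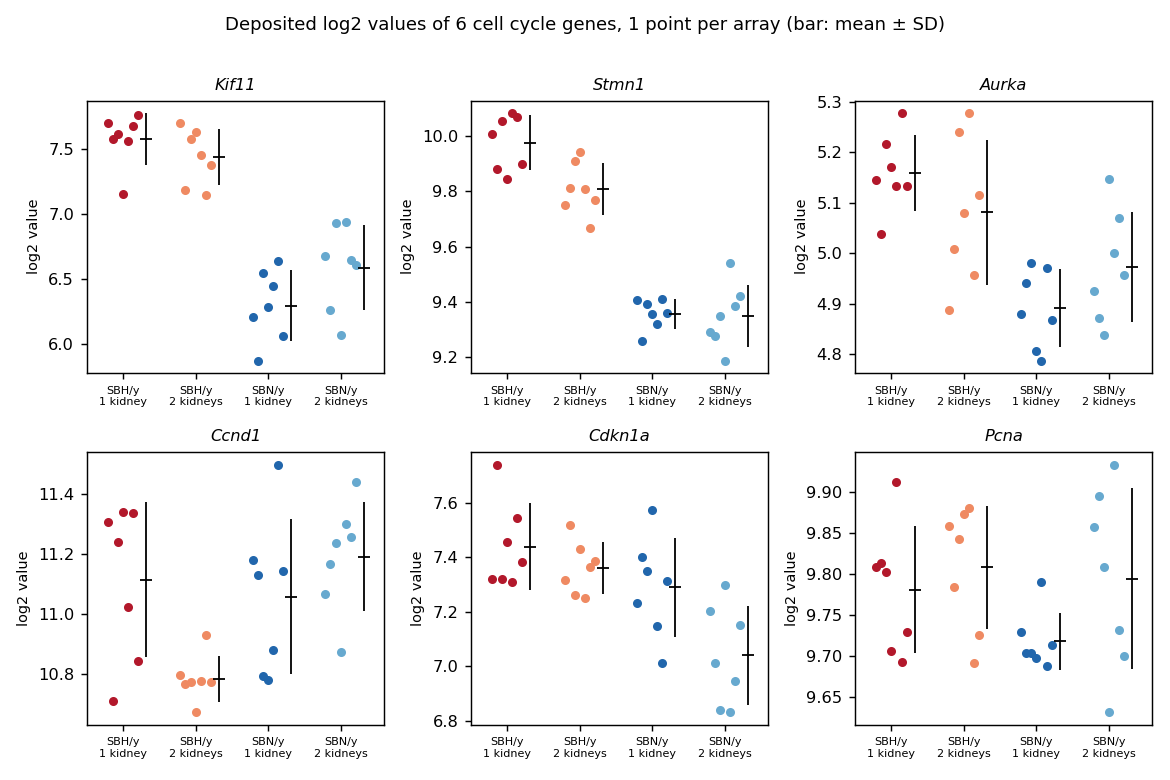
Deposited log2 values (vertical axis) of 6 members in the 4 groups, 1 point per array, with the mean and SD of 7 arrays beside each group. Kif11 and Stmn1 separate the strains in both states, Ccnd1 is lowest in 2-kidney SBH/y, and Pcna differs little between groups.

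Other genes of the cycle were read from 5 lists of pathway genes outside the 44. Of 60 kinetochore, spindle and cytokinesis genes measured, 5 were higher in 1-kidney than in 2-kidney SBH/y and 0 lower, with a median difference of 0.08 and 49 positive. The share called higher was nearer the background over all genes, 4.85% higher and 5.51% lower, than that of the 42 members. Named by smallest p, they were the beta tubulin Tubb5 at 0.26 ± 0.06, the centromere protector Sgo1 at 0.31 ± 0.08, Cdca3 at 0.36 ± 0.09 and the centromere protein Cenpn at 0.25 ± 0.08. With SBH/y replicate 5 or 7 with 1 kidney or SBH/y replicate 5 or 7 with both kidneys left out, 3 were called. Neither share exceeded the background in 39 genes of the replication machinery, where 1 was higher and 0 were lower, with a median of 0.05. The called gene was Uhrf1, which guides maintenance of DNA methylation, at 0.22 ± 0.07. Leaving out single arrays gave 0 to 3, and this call was near the threshold at a limma adjusted p of 0.0454. Origin, polymerase, primase and clamp loader genes were thus not called.

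Of 38 genes of RB-E2F and CDK control, 4 were higher and 1 lower, with a median of 0.03. The background in this comparison was 4.85% of all genes called higher and 5.51% lower. Cks1b and Cks2, small subunits of cyclin-dependent kinases, were higher by 0.30 ± 0.06 and 0.35 ± 0.10. Wee1, the kinase that holds Cdk1 inactive, was higher by 0.46 ± 0.10, and Tfdp2, an E2F partner, was lower, at -0.17 ± 0.05. Leaving out SBH/y replicate 1, 3 or 5 with 1 kidney or replicate 1 or 6 with both kidneys gave 2 higher. The call of Tfdp2 was lost without SBH/y replicate 4 or 5 with 1 kidney. Among 23 p53 targets and growth arrest genes, 2 were higher and 1 lower, which is near the 4.85% and 5.51% of all genes. The stress gene Ddit4 was higher by 0.49 ± 0.07, and it was also called in SBN/y at 0.34 ± 0.07. Rprm, a p53-induced arrest gene, was higher by 0.39 ± 0.08, and the growth arrest gene Gadd45a was lower at -0.37 ± 0.07. The number lower was 2 without SBH/y replicate 2 with 1 kidney. Of 21 genes of the DNA damage checkpoint and repair 0 were called by limma, with a median of 0.06. Leaving out single arrays gave up to 2 higher and up to 1 lower. Between the strains with 1 kidney, the numbers higher and lower in SBH/y were 17 and 2 of 60 for the kinetochore list and 9 and 3 of 39 for replication. They were 4 and 3 of 38 for RB-E2F, 5 and 3 of 23 for p53 targets and 7 and 0 of 21 for DNA damage, beside the 14.9% and 11.9% of all genes. With both kidneys the numbers were 4 and 4 for the kinetochore list, 2 and 4 for replication, 1 and 2 for RB-E2F, 5 and 3 for p53 targets and 1 and 1 for DNA damage, beside 11.8% and 9.69%. Called lower in SBH/y in that state were Cks1b at -0.23 ± 0.06, Cks2 at -0.49 ± 0.10 and Sgo1 at -0.30 ± 0.08. Gadd45a was called higher, at 0.365 ± 0.068. None of these was called between the strains with 1 kidney. Tubb5, Cdca3, Cenpn, Uhrf1, Wee1 and Rprm were higher in SBH/y with 1 kidney only, and Tfdp2 lower with 1 kidney only. Ddit4 was lower in SBH/y in both states.

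The cell cycle genes were also averaged for each array, each gene centred on its mean over the 28 arrays. The mean over the 42 members ran from 0.06 to 0.26 in 1-kidney SBH/y, against -0.07 to 0.01 in 2-kidney SBH/y, without overlap. It ran from -0.11 to 0.00 in 1-kidney SBN/y, against -0.12 to 0.07 in 2-kidney SBN/y. For 27 of 42 members the highest of all 28 arrays was a 1-kidney SBH/y array, which held for 29.5% of all genes. SBH/y replicate 5 with 1 kidney was the highest array for 13 members and replicate 6 for 6. In SBN/y with both kidneys the array means also spread. The highest value lay in 2-kidney SBN/y for 9 members, in 1-kidney SBN/y for 4 and in 2-kidney SBH/y for 2. The share of all genes was counted for 1-kidney SBH/y only. The counts of the other groups and of single arrays therefore have no background, and nothing is read from them.

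Markers of other cells and of injury moved in the same comparison, in which 4.85% of all genes were called higher and 5.51% lower. Of 13 injured tubule markers 7 were higher in 1-kidney SBH/y and 0 lower, led by the kidney injury molecule Havcr1 at 2.79 ± 0.24, osteopontin Spp1 at 0.86 ± 0.10 and Vim at 0.49 ± 0.06. Their centred mean ran from 0.15 to 0.54 in 1-kidney SBH/y, against -0.19 to -0.07 in 2-kidney SBH/y. In SBN/y it ran from -0.15 to 0.07 with 1 kidney and from -0.19 to 0.02 with both. All 6 podocyte markers were lower, among them Wt1 at -0.55 ± 0.07 and Nphs1 at -0.62 ± 0.10, with means of -0.53 to -0.02 in 1-kidney SBH/y, against 0.08 to 0.23 in 2-kidney SBH/y. In T and NK cell markers 5 of 17 were higher and 0 lower, with Cd3e at 0.54 ± 0.07, and the group means overlapped, from -0.07 to 0.27 in 1-kidney SBH/y and from -0.17 to 0.08 in 2-kidney SBH/y. The same 5 were called lower in SBH/y than in SBN/y with both kidneys, where 3 others were higher. With 1 kidney 3 T and NK cell markers were higher in SBH/y and 0 lower, and none of those 5 was called. Among 19 markers of macrophages and monocytes 6 were higher and 0 lower, with Csf1r at 0.33 ± 0.06 and ranges of 0.06 to 0.44 in 1-kidney SBH/y and -0.01 to 0.29 in 2-kidney SBH/y. Of 7 B and plasma cell markers 1 was higher, Jchain at 1.19 ± 0.13, with ranges of 0.10 to 0.48 in 1-kidney SBH/y and -0.13 to 0.29 in 2-kidney SBH/y. Fibroblast and smooth muscle markers were 3 higher and 2 lower of 12, endothelial markers 0 and 2 of 11, and neutrophil markers 1 and 1 of 6. Proximal tubule markers were 1 higher and 1 lower of 15, those of the thick ascending limb and distal tubule 3 and 1 of 11, of the collecting duct 0 and 0 of 9, and erythroid markers 0 and 1 of 4. All 15 proximal tubule markers had means above the lowest array median, as did all measured markers of the collecting duct, podocytes and endothelium. Most of the genes measured also lay above this level, so it does not check the labelled tissue. The 2 arrays with the highest cell cycle means, SBH/y replicates 5 and 6 with 1 kidney, also had the highest injured tubule means. The same 2 arrays had the highest fibroblast and smooth muscle means. Replicate 6 also had the highest mean of macrophage and monocyte markers and of T and NK cell markers, and the lowest podocyte mean. Replicate 5 did not share this. Its T and NK cell mean was 0.01 and its podocyte mean -0.22, both inside the range of the other 1-kidney SBH/y arrays. The highest B and plasma cell mean, 0.48, was that of replicate 7 with 1 kidney. Between the strains with 1 kidney, SBH/y had 15 of 19 macrophage and monocyte markers higher and 2 lower, 6 of 13 injured tubule markers higher and 1 lower, and 5 of 6 podocyte markers lower and 0 higher. With both kidneys 11 macrophage and monocyte markers were higher in SBH/y and 2 lower, 2 injured tubule markers higher and 3 lower, and 2 podocyte markers higher and 0 lower. Over all genes 14.9% were higher and 11.9% lower in SBH/y with 1 kidney, and 11.8% and 9.69% with both. The part of these cell types and of injury in the cell cycle values of either comparison was not tested.

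**Figure D5:**
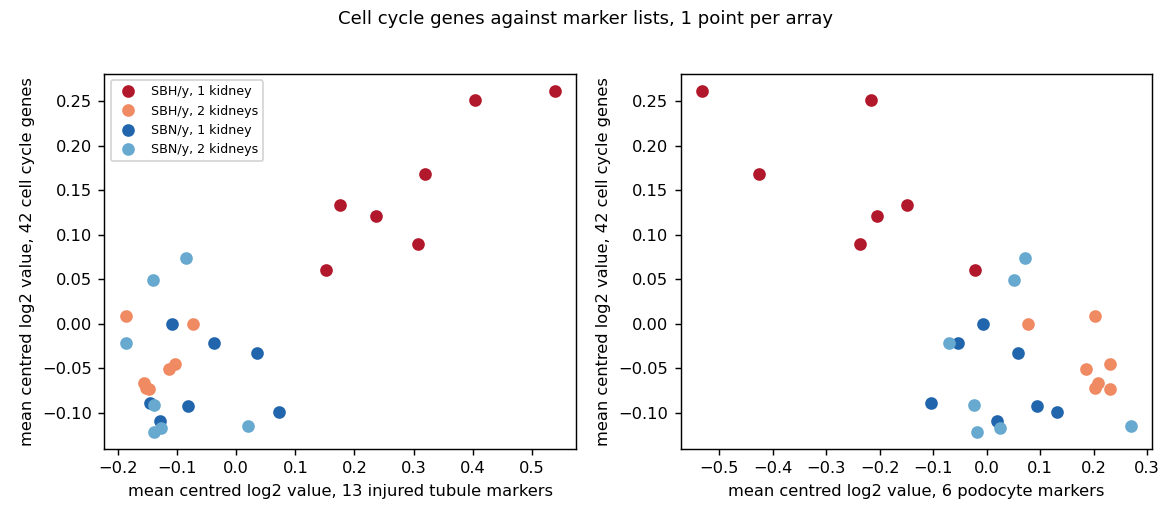
Mean centred log2 value of the 42 cell cycle genes (vertical axis) against that of 13 injured tubule markers (left) and 6 podocyte markers (right), 1 point per array. The 7 1-kidney SBH/y arrays lie between 0.06 and 0.26 on the cell cycle axis, with higher injured tubule and lower podocyte means than 2-kidney SBH/y.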

How the data were processed

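Per the labels' protocols and the submitters' processing notes, RNA of whole kidneys was hybridised to 1-colour Affymetrix rat arrays, and the authors deposited log2 values made with RMA, a method that corrects background, normalizes by quantiles and summarises probes. The table holds 31099 probe sets, from which 57 controls were left out. Of the 31042 tested, 20826 carry 1 gene symbol in the platform annotation, 436 several and 9780 none. Genes are represented by their probe set of highest mean. limma 3.58.1 in R 4.3.3 was fitted to all 28 arrays with a mean per group, and p-values were adjusted by Benjamini-Hochberg over the 31042 probe sets for each of 5 comparisons, with 0.05 as the threshold. All tests are two-sided. Simulated data with 31042 probe sets, 200 of them changed, gave back 95% of changes of 0.5 log2 units in the uninephrectomy comparison in SBH/y, with 13 false calls, and 81% in the interaction. The simulated noise was independent between probe sets, and no change smaller than 0.5 was simulated. Most member differences and interactions were smaller than that, so the simulation does not tell how many such changes would be called. No interval of counting error applies to arrays. Lowest, median and highest values are given for the 20 members with the smallest p in the uninephrectomy comparison in SBH/y and for Ccnd1, Ccnd2, Ccnd3, Pcna, Mki67 and Cdkn1a, and up to 4 called genes are named per pathway list and up to 3 per marker list. The members, the 5 pathway lists and the 12 marker lists were chosen with earlier results of these data known. Alternatives were other normalizations, a filter on dim probe sets, trended and robust variances, array weights, a replicate block, fits of 2 groups, the probe set of highest SD and leaving out each array.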

Additional observations from a re-analysis of the deposited data

Results flagged for a closer look

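Within groups of 7 arrays, a sample stood apart from the rest for 7 of the 168 combinations of member and group, where chance alone sets apart about 1 in 20. Kif11 was lowest in SBH/y replicate 4 with 1 kidney, at 7.155, against 7.566 in the next array. Nusap1 was highest in SBH/y replicate 7 with 1 kidney, at 5.559, and lowest in SBH/y replicate 7 with both kidneys, at 4.811. Melk was highest in SBH/y replicate 6 with 1 kidney, at 3.465. Tk1 was highest in SBH/y replicate 6 with both kidneys, at 6.31. Tyms was lowest in SBH/y replicate 4 with both kidneys, at 5.092. Pcna was highest in SBN/y replicate 5 with 1 kidney, at 9.79.

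Mad2l1 was the member whose response to uninephrectomy differed between the strains by the interaction test, at 0.397 ± 0.094 log2 units (limma adjusted p 0.0243). Its 2 dimmer probe sets gave 0.21 and 0.06 and were not called.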

How the results depend on the processing

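Of 7388 member values recomputed under other settings, 7262 kept their direction and their side of the threshold, 83 lost a call, 42 gained one and 1 reversed after a change of probe set, Kif23 between the 1-kidney strains at 0.238 with its probe set of highest SD, against -0.128. Without the dimmest 40% of probe sets 16 members were left, and the calls were 7 higher for uninephrectomy in SBH/y, 2 higher in the interaction, 7 higher in the 1-kidney strain comparison and 1 lower with both kidneys, where fewer members tested is part of the construction. In the interaction 2 members were called higher with quantile normalization and 3 with array weights, and array weights gave 4 lower with both kidneys. The probe set of highest SD gave 2 lower in the 1-kidney strain comparison, where it lost the call of Top2a, and lost those of Top2a and Tk1 for uninephrectomy in SBH/y. For uninephrectomy in SBH/y the count higher was 15 to 21 under the settings that kept the dim probe sets, and 9 members were called in all settings that measured them. Leaving out single arrays gave 10 to 20 higher for uninephrectomy in SBH/y, 1 to 4 in the interaction, and 19 to 22 higher and 0 to 1 lower in the 1-kidney strain comparison. With both kidneys it gave 3 higher and 2 to 3 lower. The labels do not say that equal replicate numbers mark a shared litter or day, and same-numbered samples did not deviate together in every pair, with correlations from -0.0948 to 0.586. In each pair of groups 2 to 5 of 7 samples correlated best with their own number, where 1 of 7 would at random. Whether equal numbers share a factor was not tested, and the main fit has no term for it. With the replicate number as a block 21 members were higher for uninephrectomy in SBH/y and 3 in the interaction. Over all genes the block gave 74 higher and 92 lower in SBN/y, against 41 and 45, and 232 and 276 in the interaction, against 137 and 156. Array weights gave 67 higher and 71 lower in SBN/y and 238 and 321 in the interaction. In SBN/y the filter gave 65 and 73, trended and robust variances 64 and 68, and the fit of 2 groups alone 19 and 14. The causes were not tested. Quantile normalization and median centring moved the median of all genes by at most 0.01. Most members lie below the array medians, where signal over background limits what can be read.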
